A study of Rattus norvegicus with 2 samples.

Results

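Fatty acid uptake and binding proteins bring fatty acids into cells or carry them and their CoA esters inside, and 8 of the 10411 genes with a single symbol on the arrays are described here as members of this group. They were chosen by symbol, with Cd36 and Slc27a2 for uptake, Fabp1, Fabp2, Fabp4, Fabp5 and Fabp7 for binding of free fatty acids, and Dbi for binding of acyl-CoA. Each had 1 probe set named by its symbol alone. Long-chain fatty acids reach hepatocytes from plasma, where albumin carries them. CD36 and the FATP proteins help them across the membrane, and the FATP proteins also trap them as CoA esters. Inside, the small beta-barrel FABPs hold them in solution. FABP1 is the abundant form of the liver, and the other FABPs are best known from gut, fat, skin and brain.

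Total RNA from liver had been hybridised to 2 rat arrays, 1 per diet, and the comparison asked which transcripts differ between the diets. One array was of the low-fat group and 1 of the high-fat group, both SD rats, given as 4 weeks old with 9 weeks of feeding, on food based on AIN93G, a purified rodent diet. The sources used here give neither sex, fat content and feeding state nor how many animals each RNA came from. No diet had a replicate array, so nothing could be tested and each difference describes these arrays only. In whole tissue, fewer cells of a type and less RNA per cell cannot be told apart.

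Signals are the deposited linear intensities. An array's median over 15866 probe sets served as its detection floor, 15.7 for the low-fat and 14.0 for the high-fat array. A probe set was taken as measured where its mean log2 signal reached the mean of both log2 floors, as 7864 did. Ratios are log2 of the high-fat over the low-fat signal minus the median of measured probe sets, which was -0.117, so a probe set with equal signals has a ratio of 0.12. All 11 hepatocyte markers with a probe set were measured, with ratios from 0.03 to 0.27 (median 0.14).

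Of the 8 genes, 6 were measured, and 4 of these had a ratio above 0 and 2 below. Fabp5 was past 2-fold, on the lower side, and no member was past 2-fold on the higher side. Over all measured probe sets, 1.68% were past 2-fold in either direction, 0.903% were at least 2-fold lower, 0.776% at least 2-fold higher, and 50% above 0. The median over the 6 was 0.13, against 0 over all measured probe sets by construction. The 4 against 2 turned to 2 above and 4 below with quantile normalization, as Fabp1 and Slc27a2, both near 0, changed sign.

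**Figure D1:**
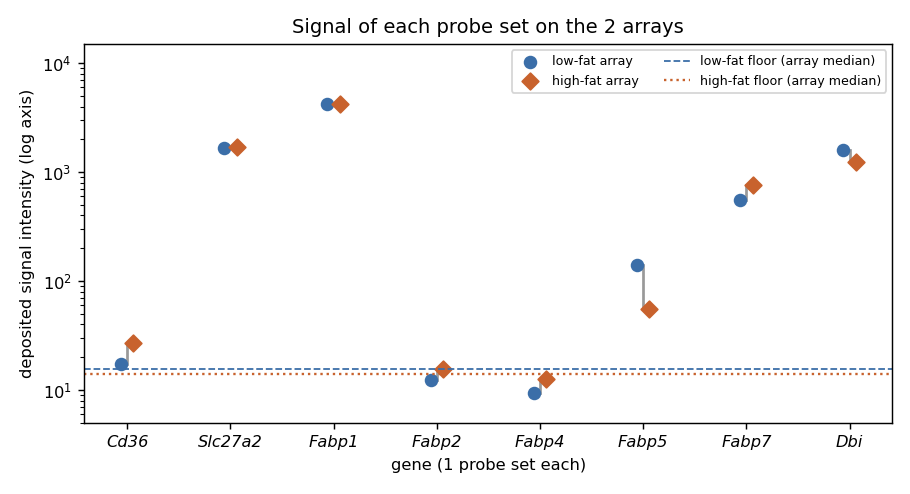
Deposited signal (log axis) of the 1 probe set of each gene on the low-fat array (circles) and the high-fat array (diamonds), with each array's floor as a horizontal line. Fabp5 had 140.0 and 54.9, Fabp1 had nearly equal signals, and Fabp2 and Fabp4 lay around the floors.

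Among the uptake genes, Cd36 encodes a scavenger receptor and fatty acid translocase of the cell surface. Its probe set (1367689_a_at) read 17.3 for the low-fat and 27.2 for the high-fat array. Both signals were above their floors, but close to them. The ratio was 0.77, or 1.70-fold higher, and 163 of 7864 measured probe sets, Cd36 included, had a ratio as high or higher. Dim probe sets scattered more widely. Among the 786 probe sets of similar signal, the robust SD of the ratio, a scaled median absolute deviation, was 0.420, and 2.80% were past 2-fold in either direction. This scatter mixes noise with real differences and does not stand for the error between animals. With a pseudocount of 50 the ratio of Cd36 was 0.26. CD36 is also found on endothelial cells and platelets. Of 7 endothelial markers 5 were measured, 1 above 0 and 4 below, with summed signals of 418.8 and 373.7 over the 7. Of 5 red cell and platelet markers 4 were measured, 3 above 0 and 1 below, with summed signals of 1474.8 and 1429.9. Most of this sum came from the red cell gene Hbb (1406.5 and 1371), so it does not describe platelets. Of the platelet markers, Itga2b (16.4 and 16.1, ratio 0.09) and Pf4 (21.1 and 19.4, ratio -0.004) were close to the floors. The platelet marker Ppbp was not measured. The part of endothelial cells and platelets in the value of Cd36 was not tested. Cd36l1, a related gene, lies next to Cd36, and the reference gene table names 1 pseudogene of Cd36. Whether transcripts of either add to this signal was not tested.

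Slc27a2 encodes FATP2, a transporter and very-long-chain acyl-CoA synthetase of liver and kidney. Its probe set (1368150_at) read 1661.7 and 1697.1, a difference of 2.13% in the deposited signal. The ratio was 0.15 after centring and 0.03 before it, and the robust SD among the 787 brightest measured probe sets was 0.171. The sign turned with quantile normalization, at -0.003, so no direction can be read for this gene.

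Fabp1, the liver fatty acid binding protein, read 4200.3 for the low-fat and 4214.3 for the high-fat array (probe set 1369111_at). The deposited signals differed by 0.333%. Its ratio was 0.12 after centring, 0.005 before it and -0.01 with quantile normalization. The transcript for the main liver carrier thus had almost the same signal on both arrays, within the robust SD of 0.171 of the brightest probe sets.

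Fabp5, the epidermal form, which also occurs in macrophages and adipocytes, had the largest difference among the 8. Its signal was 140.0 for the low-fat and 54.9 for the high-fat array (probe set 1370281_at), a difference of -60.8%. Both signals were well clear of the floors. The ratio was -1.23, or 2.35-fold lower, and 22 of 7864 measured probe sets, Fabp5 included, had a ratio as low or lower. Among the 787 probe sets of similar signal, 0.762% were past 2-fold in either direction and the robust SD was 0.225. Across 7 scalings the ratio of Fabp5 ran from -1.35 to -0.80. It was short of 2-fold only with a pseudocount of 50, which pulls such signals together.

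Markers of other cell types known to express Fabp5 gave the following values. All 9 macrophage and Kupffer cell markers with a probe set were measured, 5 above 0 and 4 below, with ratios from -0.31 (C1qc) to 0.50 (Cd14). Their median ratio was 0.008. Their summed deposited signal, which is not centred, was 1449.1 for the low-fat and 1266.8 for the high-fat array, a difference of -12.6%. Of 7 adipocyte markers 3 were measured, with ratios from 0.02 to 0.26 and summed signals of 113.2 and 103.2 over the 7. None of 5 keratinocyte markers was measured. Their part in the value of Fabp5 was not tested. The reference gene table also names 2 pseudogenes of Fabp5, and whether they add to its signal was not tested.

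Fabp7, the brain form, known from radial glia and also found in rodent liver, read 549.9 for the low-fat and 754.0 for the high-fat array (probe set 1370024_at). The signal was 37.1% higher. The ratio was 0.57, or 1.49-fold higher, and lay between 0.46 and 0.57 over all 7 scalings. Among the 787 brightest measured probe sets, which include Fabp7, the robust SD was 0.171 and 0.635% were past 2-fold in either direction. Those 787 reach up to far brighter probe sets, such as that of Alb (9119.2 and 9255.6). The scatter at the signal of Fabp7 alone was not taken. Of all 7864 measured probe sets, 351, Fabp7 included, had a ratio as high or higher. None of 5 glial markers with a probe set was measured, and their summed signals were 35.6 and 28.8. Fabp7 and Fabp5 therefore differed in opposite directions between the same 2 arrays.

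Fabp2, the intestinal form, and Fabp4, the form of adipocytes, were not measured. Fabp2 (1369195_at) read 12.4 and 15.6, below the floor on the low-fat array and just above it on the other. Fabp4 (1368271_a_at) read 9.4 and 12.5, below both floors. No fold is given for either. Of the 7 adipocyte markers, Cfd (58.4 and 54.5), Lpl (16.9 and 15.9) and Cidea (16.6 and 18.3) were measured, while the other 4, Plin1 and Lep among them, were below both floors. Of the 7 enterocyte markers 3 were measured. They were Apoa4 and Anpep, which liver also expresses, and the intestinal factor Cdx2, which read 14.4 and 18.3, below the floor on the low-fat array only. The gut markers Si, Rbp2, Alpi and Cdx1 were below both floors. Summed signals over the 7 enterocyte markers were 2290.1 and 2148.0, most of it from Apoa4 (2105.6 and 1990.8). The part of these cells in the signals of Fabp2 and Fabp4 was not tested. Of 4 bile duct markers 1 was measured (Epcam, -0.17). Signals under the floor do not show that a transcript is absent.

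Dbi encodes the acyl-CoA binding protein ACBP, which holds long-chain acyl-CoA in the cytosol. It read 1606.1 for the low-fat and 1239.1 for the high-fat array (probe set 1370235_at), a difference of -22.9%. Its ratio was -0.26, and it stayed below 0 in all 7 scalings, from -0.37 to -0.26. The robust SD among the 787 brightest measured probe sets was 0.171, which puts Dbi at -1.51 of these SDs. Of all 7864 measured probe sets, 1623 had a ratio as low or lower. That rank includes dimmer probe sets, which scattered more widely. The reference gene table names 3 pseudogenes of Dbi, whose share in its signal was not tested.

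**Figure D2:**
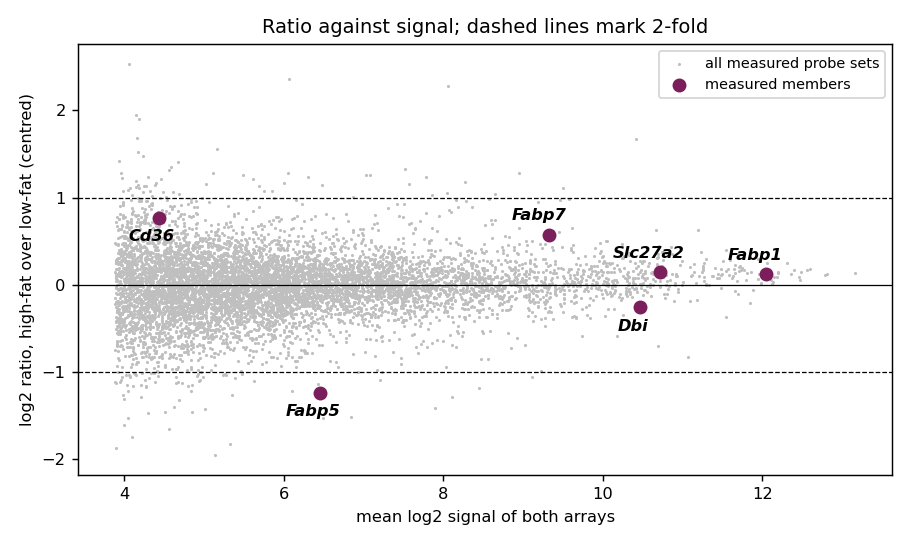
Centred log2 ratio (high-fat against low-fat array) plotted against the mean log2 signal of both arrays, for all 7864 measured probe sets (grey) and the 6 measured members (purple), with dashed lines at 2-fold. Fabp5 lies outside the main cloud at -1.23, Cd36 lies in the wide scatter of dim probe sets, and Fabp1 and Slc27a2 lie near 0.

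The robust SD of the ratio was 0.420 in the range of signal of Cd36. It was 0.171 among the brightest probe sets, a wide range of signal that includes Fabp7, Dbi, Slc27a2 and Fabp1. Cd36 had the larger ratio, but Fabp7 lay 3.35 of these robust SDs from 0 and Cd36 1.83. Fabp5 lay at -5.49, Dbi at -1.51, Slc27a2 at 0.863 and Fabp1 at 0.712. These distances are counted from 0, not from the middle of the probe sets that gave each SD, and are not tests of diet.

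**Figure D3:**
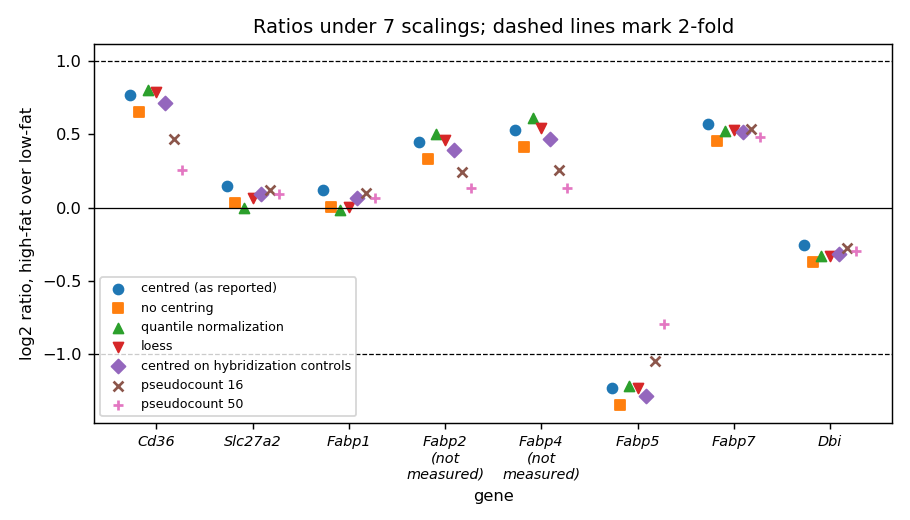
Log2 ratio of each gene under 7 scalings: centred as reported, without centring, quantile normalization, loess, centred on hybridization controls, and with pseudocounts of 16 and 50. Fabp5 and Dbi were below 0 and Fabp7 and Cd36 above 0 in all 7, while Fabp1 and Slc27a2 lay close to 0 and were on both sides of it.

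Promoter sequence is shown because Fabp1 and Slc27a2 are textbook targets of PPARalpha, the fatty acid receptor, which binds with RXR to a repeat of 2 half-sites 1 base apart (DR1). RefSeq windows of 250 bases before the start were available for 6 of the 8 genes, all but Fabp4 and Fabp5. They were searched on both strands for the DR1 letters AGGTCANAGGTCA with up to 2 mismatches. Fabp1 (1 mismatch), Slc27a2 (2) and Fabp2 (2) held a match, and Cd36, Fabp7 and Dbi did not. Of 33469 such windows in the table, 3.15% held one and 0.368% with up to 1 mismatch. The 110 bases before the start are given below 5′ to 3′ on the gene's strand, from assembly GRCr8, with the match in capitals. All 3 matches read as the reverse complement on that strand.
Fabp1, chr4:104749230-104749339, plus strand: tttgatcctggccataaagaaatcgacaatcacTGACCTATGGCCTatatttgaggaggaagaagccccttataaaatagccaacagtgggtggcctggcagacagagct
Slc27a2, chr3:134257991-134258100, plus strand: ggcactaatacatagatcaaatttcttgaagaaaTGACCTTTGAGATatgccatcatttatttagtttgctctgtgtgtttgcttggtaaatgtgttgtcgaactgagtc
Fabp2, chr2:213724519-213724628, plus strand: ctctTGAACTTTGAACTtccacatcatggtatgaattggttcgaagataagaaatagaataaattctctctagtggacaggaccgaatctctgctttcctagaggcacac
Fabp7, chr20:37669496-37669605, plus strand, without a match: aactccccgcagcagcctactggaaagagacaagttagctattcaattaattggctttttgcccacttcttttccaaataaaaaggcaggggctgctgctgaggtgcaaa

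The match lay 77 to 65 bases before the start in Fabp1, 76 to 64 in Slc27a2 and 106 to 94 in Fabp2. Of the 6 windows 2 held TATAAA on either strand, those of Fabp1 and Cd36, against 12.9% of all windows. Counted on either strand, the window of Fabp7 held the GC box GGGCGG, as 30.5% of all windows did. In Fabp7 the box lies before the 110 bases shown. The measured genes with a DR1 match, Fabp1 and Slc27a2, had ratios of 0.12 and 0.15, and those without one had 0.77 (Cd36), 0.57 (Fabp7) and -0.26 (Dbi). A match is a description of letters and shows no binding.

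Fabp5 stands on chromosome 2 in a row of related genes, Fabp12, Fabp4, Fabp9, Pmp2 and Fabp5. Fabp12 was the other measured gene of this row. It read 90.5 for the low-fat and 54.9 for the high-fat array, a ratio of -0.60, in the direction of Fabp5. Fabp9, a testis form, read 1.4 and 3.4 and was not measured, and Fabp4 is described above. Away from this row, the heart form Fabp3 (10.4 and 7.5) and the ileal bile acid binding form Fabp6 (7.0 and 7.9) were below both floors. Of these 4 relatives outside the 8 members (Fabp3, Fabp6, Fabp9 and Fabp12), Fabp12 alone was thus above the floors.

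Other genes of fatty acid uptake, activation and binding were mostly close to 0. Of 37 listed genes 32 had a probe set and 21 were measured, 12 with a ratio above 0 and 9 below, and none past 2-fold (1.71% of all measured genes were). Their median was 0.03, against 0.13 over the members. This balance turned with the scaling, to 8 above and 13 below without centring (median -0.09) and to 10 and 11 when centred on the hybridization controls. Among the transporters, Slc27a5, the bile acid and very-long-chain acyl-CoA synthetase of liver, read 913.8 and 1104.3 (0.39). Slc27a4, a FATP of the gut and other tissues, read 33.3 and 23.8 (-0.37), and Slc27a1, the FATP of muscle and fat, read 40.9 and 38.1 (0.01). Slc27a3 was not measured, with signals of 6.0 and 3.0 on its brighter probe set and 1.1 and 7.5 on the other. The 4 measured FATP genes therefore had no common direction.

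Got2, the mitochondrial aspartate aminotransferase also described as a plasma membrane fatty acid binding protein, read 1088.6 and 1111.6 (0.15) on its brighter probe set. The acyl-CoA binding domain genes had ratios of -0.47 (Acbd6), -0.20 (Acbd4), -0.17 (Acbd5) and 0.07 (Acbd3) on their brightest probe sets. The second probe set of Acbd3, with signals of 14.3 and 24.3, was at 0.88, so these genes went both ways. Cav2, a caveola gene, had the highest ratio of the list at 0.72 when each gene was taken by its brightest probe set, but its signals of 15.2 and 23.1 were near the floors and the low-fat one was below it. Scarb1, the HDL receptor and a relative of CD36, read 94.4 and 118.9 (0.45), and 85.8 and 95.7 (0.27) on a second probe set.

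Regulators of these genes had a median of -0.01 over 19 measured of 25 listed, with 8 above 0 and 11 below and none past 2-fold. Without centring 5 were above 0. Ppara read 2.2 and 4.1 and Pparg, the adipocyte regulator, 9.3 and 8.5, all below the floors, so neither was measured. Rxra, the partner of both, read 26.4 and 17.8 (-0.45). Hnf4a, a master regulator of hepatocyte genes, had ratios of 0.15 and -0.02 on its 2 probe sets. Srebf1, a regulator of lipid synthesis, was at 0.66, the xenobiotic receptor Nr1i2 at -0.64, Foxa1 at 0.44 and Nr1h3, the oxysterol receptor LXRalpha, at -0.32.

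Among the genes listed as Ppara targets, 21 were measured, 9 above 0 and 12 below, with a median of -0.05. The 5 largest absolute ratios were 1.28 (Cyp4a8), -0.78 (Pex11a), -0.67 (Angptl4), -0.55 (Crat) and 0.48 (Fgf21). These ratios went both ways, as did those of the members. Cyp4a8 read 10.4 (below the floor) and 23.3, and its second probe set, at 7.6 and 13.0, was not measured. Pex11a was at -0.12 on a second probe set. All these values and those of the members come from the same 2 arrays.

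**Figure D4:**
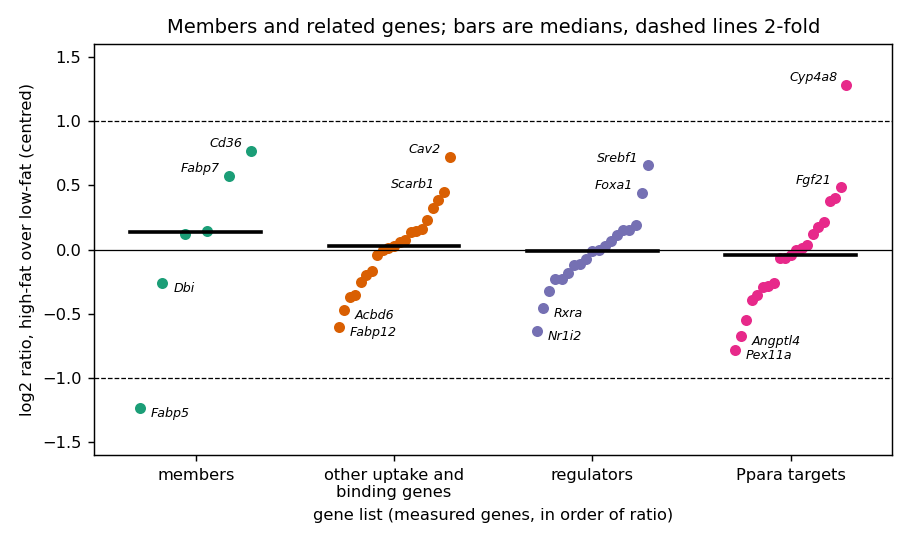
Centred log2 ratio of each measured gene, in order of ratio, for the 6 members, 21 other uptake and binding genes, 19 regulators and 21 Ppara targets, with medians as bars (0.13, 0.03, -0.01 and -0.05) and dashed lines at 2-fold. Fabp5 lies below the 2-fold line and Cyp4a8, whose low-fat signal was below the floor, above it.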

How the data were processed

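The deposited values are signal intensities, 1 for each probe set on each array, and how the authors made them from the scans is not given in the sources used here. Its linear scale was read from the values. Each array's diet came from its title. Of 15923 probe sets, 57 controls were left out, and 4 with a 0 were left out of ratios. In the platform annotation 12783 had 1 gene symbol, 312 several and 2771 are unnamed here. Ratios, floors and centring are as given above, with no pseudocount. A listed gene with more than 1 probe set was represented by its brightest (mean log2 signal). The scatter of ratios was taken in 10 bins of signal with nearly equal numbers of probe sets. The brightest bin therefore spans a wide range of signal.

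The members and lists were chosen with earlier results of these data known. The text names every member, the 5 measured genes of each list with the largest absolute ratio, the family relatives with a probe set, Ppara, Pparg, Rxra and Hnf4a. Other genes, marker genes included, were named after their values were seen. The number of arrays limits the precision. The scaling was also run on simulated data, with planted changes balanced in both directions and only in brighter probe sets. That run cannot show how the scaling performs on unbalanced changes or on dim probe sets such as that of Cd36. Python 3.11.15, numpy 2.4.6, pandas 2.3.3 and statsmodels 0.14.6 were used.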

Additional observations from a re-analysis of the deposited data

Results flagged for a closer look

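A further probe set, which the annotation gives to both Cd36 and its neighbour Cd36l1, entered no value above. Its signal was 58.0 for the low-fat and 70.5 for the high-fat array, a ratio of 0.40, on the same side of 0 as the probe set of Cd36 alone (0.77). Both of its signals were above the floors. It cannot be assigned to 1 of the 2 genes.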

How the results depend on the processing

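No paired analysis was possible because each diet had 1 array. Of 36 ratios of the 6 measured members under other scalings, 34 moved by less than the robust SD for their signal. The other 2 were Fabp5 (-0.80) and Cd36 (0.26), both with a pseudocount of 50. The median over measured members ran from -0.01 to 0.31. With quantile normalization 2 members were above 0 and 4 below, and with a pseudocount of 50 the count at least 2-fold lower was 0. Among Ppara targets, the count at least 2-fold higher was 0 with either pseudocount and with the floor at the 75th percentile. Among other uptake and binding genes, the count at least 2-fold lower was 2 with the floor at the 25th percentile, and without a floor 3 were lower and 1 higher by 2-fold and 15 were below 0. Among regulators, 5 were above 0 without centring and 3 with the floor at the 75th percentile, and without a floor 1 was at least 2-fold higher and 1 lower. Fewer or more genes are tested with another floor. The cause of the other shifts was not tested. Adding the probe set of Cd36 and Cd36l1 was chosen after the data were seen. Signals near the floors limit what can be said of Cd36, Fabp2 and Fabp4.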
